A study of Mus musculus with 15 samples.

Results

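The genes described here are the cytosolic ribosomal protein genes, 83 of the 26263 named genes in the count tables. They were chosen by symbol: an Rpl or Rps stem, a number and at most 1 further letter out of a, x, l and p, or the names Rplp0, Rplp1, Rplp2 and Rpsa. Of these, 51 carry Rpl or Rplp symbols (large subunit) and 32 carry Rps or Rpsa symbols (small subunit). The cells were neural stem and progenitor cells from the dorsal telencephalon of mouse embryos (embryonic day 12.5), cultured as neurospheres in medium with EGF and FGF, and their RNA was sequenced. Tg_FvB (n = 6) were cells with a Kat6b transgene on the mixed background labelled FvB/BalbC, and WT_FvB (n = 2) were wild-type cells on that background. KO_B6 (n = 4) were Kat6b knockout cells on C57BL/6, and WT_B6 (n = 3) were wild-type cells on C57BL/6. The labels name neither the promoter of the transgene nor the extent of the deletion. Fewer cells of a type and less RNA per cell cannot be told apart in these bulk cultures.

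Kat6b encodes a histone acetyltransferase. Each cytosolic ribosome joins a large and a small subunit, and nearly every ribosomal protein is present in 1 copy per ribosome. The exceptions are Rplp1 and Rplp2, which sit in several copies on the stalk formed by Rplp0. In mammals most of these proteins come from a single intron-bearing gene, while the genome also carries many processed copies of the same messages, most of them annotated as pseudogenes. In growing cells such as neural progenitors these messages are abundant, and their translation is controlled through a pyrimidine tract at their start.

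The processed copies bear directly on how reads of 66 bases can be assigned. The coding sequence of each gene was cut into every run of 66 bases, the read length, and each run was searched for in the annotated transcripts of other genes on either strand (GENCODE vM21, build GRCm38). Of the 83 genes, 80 had at least 1 such run in an annotated pseudogene. The median gene shared 81.6% of its runs with pseudogenes, and 62 genes shared more than 50%. The number of pseudogenes sharing a run had a median of 5 and reached 87, for Rpl7a. The labels do not say which of such reads the authors' counting kept.

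The following stretches are shown because the counts of these genes and of these copies turn out to move against each other. Each pair is a gene and a processed pseudogene, aligned without gaps over the coding sequence, and the capitals mark the bases at which they differ. The stretch is the run of 66 coding bases with the most differences, read 5′ to 3′ in the sense of the gene.
Rpl29: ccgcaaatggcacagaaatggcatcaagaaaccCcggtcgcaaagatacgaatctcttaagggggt
Gm8210: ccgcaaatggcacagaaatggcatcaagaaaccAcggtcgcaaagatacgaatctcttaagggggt
Rpl26: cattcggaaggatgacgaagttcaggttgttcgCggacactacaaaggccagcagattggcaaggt
Gm15772: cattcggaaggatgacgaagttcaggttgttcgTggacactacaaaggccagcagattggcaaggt
Rpl34: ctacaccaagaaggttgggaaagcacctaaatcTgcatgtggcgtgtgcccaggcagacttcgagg
Rpl34-ps1: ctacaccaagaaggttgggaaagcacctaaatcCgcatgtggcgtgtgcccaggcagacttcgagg
Rps28: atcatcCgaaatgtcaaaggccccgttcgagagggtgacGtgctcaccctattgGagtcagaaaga
Gm20568: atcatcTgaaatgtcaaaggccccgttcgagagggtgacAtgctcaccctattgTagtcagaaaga
Rps2: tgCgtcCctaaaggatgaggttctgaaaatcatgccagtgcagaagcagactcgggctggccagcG
Gm6139: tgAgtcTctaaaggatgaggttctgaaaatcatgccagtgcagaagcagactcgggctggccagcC
Rpl29 lies at chr9:106429454-106431568 and its copy Gm8210 at chr1:43189156-43189638, both on the plus strand, and they differ at 3 of 483 aligned bases. Rpl26 (chr11:68901583-68906989, plus strand) and Gm15772 (chr5:3236431-3236868, plus strand) differ at 2 of 438 aligned bases. Rpl34 (chr3:130726831-130730398, minus strand) and Rpl34-ps1 (chr6:71124610-71124963, plus strand) differ at 2 of 354 aligned bases. In these 3 pairs no stretch of 66 bases held more than 1 difference. Rps28 (chr17:33819027-33824562, minus strand) and Gm20568 (chr3:126447743-126447950, plus strand) differ at 5 of 208 aligned bases. Rps2 (chr17:24718116-24721929, plus strand) and Gm6139 (chr5:129622990-129623871, minus strand) differ at 10 of 882 aligned bases. A read over bases at which a pair does not differ is the same for both.

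The libraries held 12336303 to 62819028 counts over named genes. Kat6b had 268, 265, 266, 229, 139.6 and 289 CPM in Tg_FvB 1 to 6, against 54.4 and 51.8 CPM in WT_FvB (log2 fold change 2.19 ± 0.21 (SE), edgeR adjusted p = 0.000238). It had 60.9, 64.1, 66.0 and 62.3 CPM in KO_B6, against 85.1, 84.1 and 83.5 CPM in WT_B6 (log2 fold change -0.41 ± 0.17 (SE), edgeR adjusted p = 0.0571). CPM is the usual count scaled to library size, here with edgeR's TMM factors. Tg_FvB 5 had the least Kat6b of the transgenic libraries, and the count columns of Tg_FvB 5 and 6 are headed as wild types. The 10 neural stem and progenitor markers were detected in every group, but not at equal levels (1 was higher and 6 lower in KO_B6 over WT_B6, and 1 higher and 7 lower in WT_FvB over WT_B6). Of 7 microglia and macrophage markers, including Aif1, Cx3cr1 and Csf1r, none passed the count filter, and they summed to at most 0.364 CPM in any library. Several libraries were nearly alike: WT_B6 1, 2 and 4 differed by a biological coefficient of variation of 0.0172 to 0.0358, KO_B6 2 and 3 by 0.0268, WT_FvB 1 and 2 by 0.0316 and Tg_FvB 1 to 3 by 0.0338 to 0.0503. With each of these sets summed to 1 library, edgeR called 0 of 80 ribosomal protein genes in each comparison below (5 for KO_B6 over WT_B6, 1 for Tg_FvB over WT_FvB and 19 for WT_FvB over WT_B6 at an unadjusted p under 0.05). In that fit it called 5 of 15958 genes in all for KO_B6 over WT_B6 and 0 for the other comparisons. WT_B6 and WT_FvB are then 1 library each and are assumed to vary like the other groups. The p-values that follow count these libraries as separate.

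Together the 83 genes took a small part of all counts. Their share was 1.02, 1.10, 1.09, 1.15, 1.27 and 1.23% in Tg_FvB 1 to 6, against 1.12 and 1.14% in WT_FvB. It was 1.15, 1.32, 1.30 and 1.20% in KO_B6, against 1.30, 1.32 and 1.30% in WT_B6. The share was 1.24 ± 0.081% in KO_B6 and 1.31 ± 0.015% in WT_B6 (SD, n = 4 and 3), and the groups overlapped. The wild types of the 2 backgrounds did not overlap: the share was 1.13 ± 0.015% in WT_FvB and 1.31 ± 0.015% in WT_B6 (SD, n = 2 and 3), a ratio of 0.865. This is not the ratio of a typical gene, as the median log2 fold change was -0.06. Mean CPM in WT_FvB and WT_B6 was 428 and 942 for Rplp0, 17.5 and 356 for Rps2, and 6.72 and 197 for Rpl29. Of the 9 called genes more than 2-fold apart, only Rps28 was higher in WT_FvB.

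Although the proteins are needed in near-equal numbers, the counted levels per length were spread widely. Over the 78 protein-coding genes that passed the count filter, the mean CPM per kilobase ran from 2.61 for Rpl39 to 999 for the stalk protein gene Rplp1, a range of 383-fold. Rpl8, whose product lies near the peptidyl transferase centre, had 850.4 CPM per kilobase and shared 6.63% of its coding runs with pseudogenes. Rpl41, the gene of the smallest ribosomal protein, had 810.3 CPM per kilobase although all of its runs were shared. Its coding sequence has only 78 bases and 13 runs, while the length used for its level was 449 bases. Rpl31, with all runs shared too, had 10.5 CPM per kilobase, and its 4 short copies held most of the family's counts, leaving Rpl31 with 5.60% of them in WT_B6. Levels were lower where more was shared: Spearman's rho across the 78 genes was -0.62, a description of genes counted in the same libraries. The median level was 396.5 CPM per kilobase for the 17 genes sharing at most 50%, 79.3 for the 61 genes sharing more, and 38.3 for the 34 genes sharing over 90%. The part of the shared runs in these levels was not tested.

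**Figure D1:**
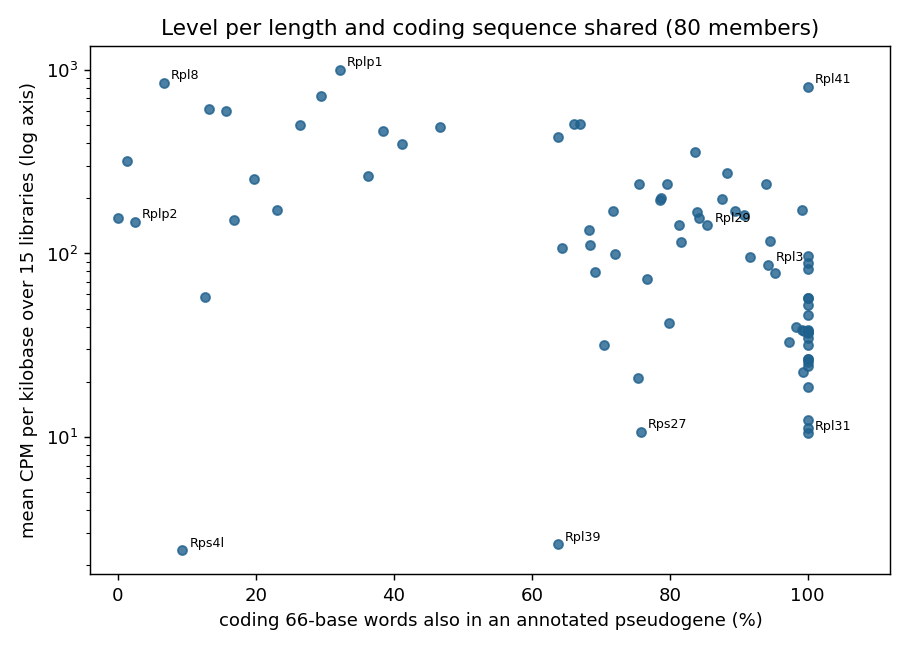
Mean CPM per kilobase over 15 libraries (vertical, log axis) against the percent of 66-base coding runs also found in an annotated pseudogene (horizontal), 1 point per gene, for the 80 genes tested. Genes with all runs shared lie below 100 CPM per kilobase, except Rpl41 at 810.3, whose coding sequence holds only 13 runs.

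Of the 83 genes, 80 passed the count filter and were tested. Rpl10l and Rpl39l, paralogs known from the testis, had 2 counts each over all libraries, and Rpl3l, the muscle paralog of Rpl3, had 27. The annotation lists 2 of the tested genes, Rps4l and Rpl6l, as pseudogenes.

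Loss of Kat6b went with small shifts in both directions. In KO_B6 over WT_B6, edgeR called 13 of the 80 genes at an adjusted p under 0.05, or 16.25%, against 45.8% of all 15261 genes tested. Of these, 6 were higher (background 24.8%) and 7 lower (background 20.9%) in KO_B6. The median log2 fold change of the 80 genes was -0.03, against 0.02 over all genes, none of the 80 changed more than 2-fold, and 76 stayed within 1.5-fold. The large subunit had 7 calls among 48 genes and the small subunit 6 among 32. With DESeq2, 18 of the genes were called, 6 higher and 12 lower, where 44.3% of all genes it tested were called.

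The largest rises belonged to the genes of 2 proteins at the stalks of the large subunit. Rpl10a, which forms the L1 stalk, had 36.6, 39.5, 34.6 and 37.8 CPM in KO_B6, against 20.4, 19.1 and 20.0 CPM in WT_B6 (log2 fold change 0.91 ± 0.13 (SE), edgeR adjusted p = 7.15e-05). Rpl10a shared 99.5% of its runs with 4 annotated pseudogenes. None of these was matched to an entry of the count tables, so adding counts of copies could not check this value. Rpl12, at the base of the stalk that receives elongation factors, had 25.7, 27.9, 27.0 and 29.7 CPM in KO_B6, against 14.7, 17.2 and 13.7 CPM in WT_B6 (log2 fold change 0.86 ± 0.18 (SE), edgeR adjusted p = 0.0012). With the counts of its 1 short copy added, the log2 fold change of Rpl12 was smaller, at 0.40 (edgeR adjusted p = 0.00213). Rpl12 held 40.0% of the summed counts in WT_B6 and 54.9% in KO_B6. For both genes every KO_B6 library lay above every WT_B6 library. Within litter 843 the log2 difference was 1.00 for Rpl10a and 0.64 for Rpl12, and within litter 929 it was 0.86 and 1.05.

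Rps12, a protein of the small subunit's beak, had 15.6, 19.3, 22.5 and 20.0 CPM in KO_B6, against 12.0, 13.5 and 11.8 CPM in WT_B6 (log2 fold change 0.64 ± 0.14 (SE), edgeR adjusted p = 0.00161). Its groups did not overlap, but its 9 short copies held more of the family's counts than Rps12 itself, and with them added the log2 fold change was 0.27 (edgeR adjusted p = 0.113). Rps27l, a paralog of Rps27 known in human cells as a target of p53, had 114, 153, 159 and 154 CPM in KO_B6, against 105, 104 and 106 CPM in WT_B6 (log2 fold change 0.47 ± 0.10 (SE), edgeR adjusted p = 0.00143). KO_B6 1 lay close to the wild types and the other 3 knockout libraries stood well above them. Rps27l had no copy in the tables that shared a run and was at most 2 times its length, so its value is the same with copies added. This is no check for shared reads, because Rps27l shared 36.3% of its runs with 4 annotated pseudogenes not matched to a table entry.

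The smaller rises were those of Rpl9 and Rpl17. Rpl9 had 24.4, 25.5, 26.9 and 27.0 CPM in KO_B6, against 22.0, 21.6 and 17.7 CPM in WT_B6 (log2 fold change 0.35 ± 0.12 (SE), edgeR adjusted p = 0.0236). Rpl17, which lines the exit tunnel, had 20.2, 23.8, 20.9 and 20.9 CPM in KO_B6, against 15.9, 19.3 and 17.2 CPM in WT_B6 (log2 fold change 0.30 ± 0.10 (SE), edgeR adjusted p = 0.0204). Both calls ended when copies were added: the summed log2 fold change was 0.24 (edgeR adjusted p = 0.137) for Rpl9 and 0.0064 (edgeR adjusted p = 0.967) for Rpl17, which held only 9.33% of its family's counts in WT_B6.

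Among the falls, Rps20, a protein of the small subunit's head, had 171, 185, 181 and 163 CPM in KO_B6, against 229, 219 and 227 CPM in WT_B6 (log2 fold change -0.36 ± 0.09 (SE), edgeR adjusted p = 0.00345). Rpl23, one of the proteins that can bind the p53 inhibitor Mdm2, had 115, 120.0, 117 and 105 CPM in KO_B6, against 128, 144 and 147 CPM in WT_B6 (log2 fold change -0.29 ± 0.11 (SE), edgeR adjusted p = 0.0377). Rpl22, needed for T-cell development in mice, had 300.2, 292, 296 and 275 CPM in KO_B6, against 340.4, 362 and 354 CPM in WT_B6 (log2 fold change -0.28 ± 0.07 (SE), edgeR adjusted p = 0.0054). In each of these 3 genes all KO_B6 libraries lay below all WT_B6 libraries. Rps7, Rps4x, Rps9 and Rpl4 fell less, with log2 fold changes of -0.26, -0.22, -0.19 and -0.16. All 13 called genes had the direction of the call within litter 843 and within litter 929, which are the litters that hold both genotypes. In none of the 13 did the KO_B6 and WT_B6 libraries overlap, so this direction was fixed in advance. It adds no support to the calls.

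**Figure D2:**
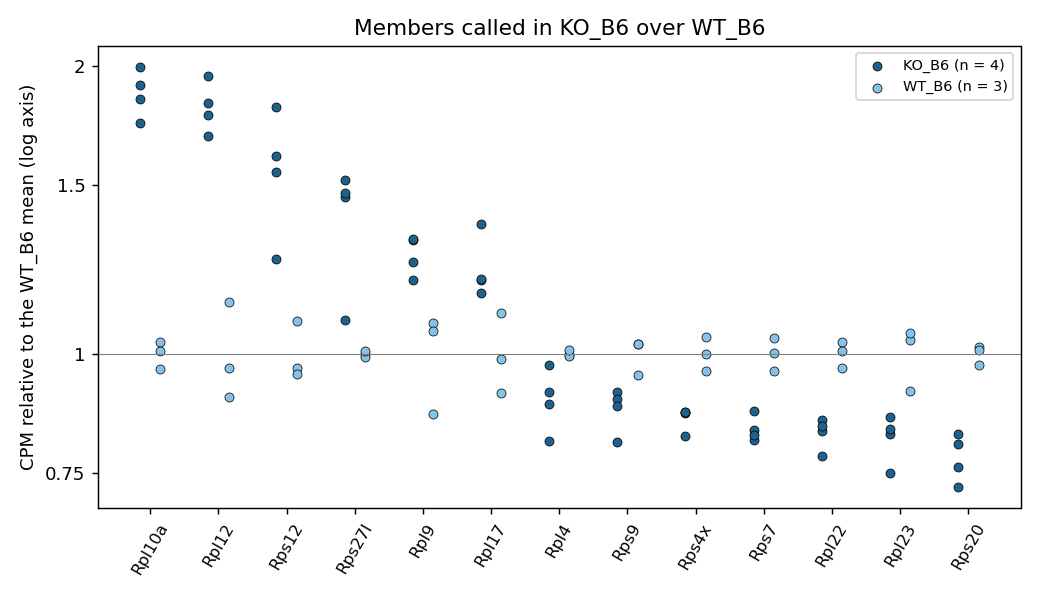
CPM of each KO_B6 (n = 4) and WT_B6 (n = 3) library relative to the WT_B6 mean (vertical, log axis) for the 13 genes called in KO_B6 over WT_B6 (horizontal, from the largest rise to the largest fall). The KO_B6 points for Rpl10a sit between 1.5 and 2, and those for the 7 genes that fell sit below 1.

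When the counts of 140 short copies were added to the 55 genes they share runs with, 16 of 80 were called in KO_B6 over WT_B6, of which 3 were higher and 13 lower. In that fit 46.1% of all genes were called. The copies include entries listed as protein-coding and not named as ribosomal, such as Med21 (added to Rps26) and BC004004 (added to Rpl21). Of 120 copies tested by themselves, 13 were called, or 10.8%, all lower in KO_B6, below the 20.9% of all genes that were lower. The count of calls among the ribosomal protein genes moved with the libraries used, as did the share of all genes called. It was 8 without WT_B6 4 (37.1% of all genes), 23 without Tg_FvB 5 and 6 (53.1%) and 21 in a fit of the KO_B6 and WT_B6 libraries alone (53.8%). The 6 astrocyte markers, of which 5 fell, summed to 530.5 to 794 CPM in KO_B6 and 999 to 1010 CPM in WT_B6, and the 10 neural stem and progenitor markers summed to 7364 to 8970.0 CPM in KO_B6 and 8945 to 8954 CPM in WT_B6. Of 7 neuron markers 2 were higher and 2 lower in KO_B6, and of 8 oligodendrocyte lineage markers 1 was higher and 3 were lower. The part of these markers in the shifts was not tested.

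Several genes of the group with known further duties were not called with loss of Kat6b. Rpl5 and Rpl11, which with the 5S RNA bind Mdm2, had log2 fold changes of 0.11 ± 0.17 and -0.04 ± 0.07 (SE). Rps6, the target of S6 kinase, averaged 116 ± 10.0 CPM in KO_B6 and 118 ± 3.29 CPM in WT_B6 (SD, n = 4 and 3), a log2 fold change of -0.02 ± 0.09 (SE). The stalk genes Rplp0, Rplp1 and Rplp2 had log2 fold changes of -0.12, -0.01 and -0.06, and Rpsa, also known as the laminin receptor, had 0.14.

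Gain of Kat6b went with 1 call. In Tg_FvB over WT_FvB, 1 of the 80 genes was called, or 1.25%, against 1.84% of all genes tested, and it was lower in Tg_FvB (background 1.16%); none was higher (background 0.681%). The median log2 fold change was 0.02, and 73 of the 80 genes stayed within 1.5-fold. DESeq2 also called 1, where 4.66% of all genes it tested were called. The called gene was Rps28, a protein of the small subunit near the path of the messenger RNA. Rps28 had 5.48, 9.22, 10.4, 13.8, 10.0 and 13.7 CPM in Tg_FvB 1 to 6, against 24.8 and 26.3 CPM in WT_FvB (log2 fold change -1.30 ± 0.24 (SE), edgeR adjusted p = 0.0232). All Tg_FvB libraries lay below both WT_FvB libraries. Within litter 844, which holds Tg_FvB 1 and 2 and both WT_FvB libraries, the log2 difference was -1.80.

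The copy Gm20568, whose sequence is printed above, moved the other way. It had 10.3, 11.9, 11.9, 10.1, 7.46 and 5.49 CPM in Tg_FvB 1 to 6, against 3.99 and 2.55 CPM in WT_FvB (log2 fold change 1.54 ± 0.31 (SE), edgeR adjusted p = 0.0283). Rps28 held 52.3% of the 2 genes' counts in Tg_FvB and 88.7% in WT_FvB. With the copy's counts added, Rps28 was no longer called, at a log2 fold change of -0.53 (edgeR adjusted p = 0.1), and no other gene was; 2 had an unadjusted p under 0.05. Rps28 also lost its call in a fit of the Tg_FvB and WT_FvB libraries alone (0.0687% of all genes called) and without Tg_FvB 2 (0.411%). It lost the call without either WT_FvB library too. That leaves 1 library in the group, and few of all genes were called then. The count of calls was 0 without Tg_FvB 2, 4 without Tg_FvB 4 (11.6% of all genes called) and 3 without Tg_FvB 5 and 6 together (4.19%). Of 6 astrocyte markers 3 were lower in Tg_FvB, summing to 907 to 1038 CPM in Tg_FvB and 1259 to 1268 CPM in WT_FvB, while 2 of 7 neuron markers, 2 of 8 oligodendrocyte lineage markers and 1 of 10 neural stem and progenitor markers were higher. Their part in these values was not tested.

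Rpl21 and Rpl34 split the transgenic libraries into sets. Rpl21, a large-subunit protein, had 9.27, 9.86, 9.64, 11.3, 93.5 and 72.0 CPM in Tg_FvB 1 to 6, against 62.0 and 60.3 CPM in WT_FvB. The first 4 transgenic libraries were all far below both wild types, and Tg_FvB 5 and 6 were both above them (log2 fold change -0.81 ± 0.72 (SE), edgeR adjusted p = 0.568). Without Tg_FvB 5 and 6 its log2 fold change was -2.63, given as a description because the gene and the libraries were singled out on these values. With its 11 copies added, over all libraries, it was -0.06 (edgeR adjusted p = 0.826). These copies include BC004004, an entry listed as protein-coding. Rpl34, a large-subunit protein, had 69.3, 71.4, 69.9, 43.0, 47.6 and 51.0 CPM in Tg_FvB 1 to 6, against 39.4 and 42.4 CPM in WT_FvB (log2 fold change 0.52 ± 0.17 (SE), edgeR adjusted p = 0.117). Here Tg_FvB 1 to 3, which are nearly alike, stood above the rest, and without Tg_FvB 5 and 6 the log2 fold change was 0.63, a description too. Its copy Rpl34-ps2 had 1.92, 2.50, 2.99, 7.52, 5.46 and 5.80 CPM in Tg_FvB 1 to 6 and 6.25 and 5.65 CPM in WT_FvB, low where Rpl34 was high. With Rpl34's 3 copies added, the log2 fold change was 0.0032 (edgeR adjusted p = 0.989).

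The effects of loss and gain themselves were compared by testing KO_B6 over WT_B6 minus Tg_FvB over WT_FvB. For this difference 12 of 80 genes were called, or 15%, against 37.3% of all genes, with 7 higher (background 19.6%) and 5 lower (background 17.8%). Rpl10a (1.11 ± 0.18 log2, SE) and Rpl12 (1.13 ± 0.25) differed most after Rps28 (1.25 ± 0.34). Rps27l, Rps12, Rpl9 and Rpl38 also had the higher value in the knockout comparison, and Rps20, Rpl23, Rpl7, Rpl22 and Rps4x the lower one. With copies added, Rps28 (0.40, edgeR adjusted p = 0.177), Rps12 (0.36, 0.161) and Rpl9 (0.39, 0.117) lost the call. Rpl12 kept it at 0.57 (0.0039), and so did the others, some of which had no copy to add. Rpl23a and Rpl26 gained the call. Within the transgenic comparison Rpl10a had a log2 fold change of -0.21 (edgeR adjusted p = 0.421). The count was 6 without WT_FvB 1 (22.9% of all genes called), 3 without WT_FvB 2 (23.3%) and 7 with litter as a covariate (18.8%).

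Of the 3 comparisons between groups, that of the wild types held the largest fold changes. In WT_FvB over WT_B6, 36 of 80 genes were called, or 45%, near the 48.9% of all genes; 12 were higher (background 25.4%) and 24 lower (background 23.5%) in WT_FvB. The median log2 fold change was -0.06, and 63 genes stayed within 1.5-fold, but 9 called genes differed by more than 2-fold. Mouse background and culture cannot be told apart here, and this comparison shares the WT_B6 libraries with the knockout comparison. The count was 21 without WT_FvB 1 (32.3% of all genes called) and 18 without WT_FvB 2 (32.2%).

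Markers of cell types also differed between the wild types. Of 10 neural stem and progenitor markers 1 was higher and 7 were lower in WT_FvB, and they summed to 7029 to 7228 CPM in WT_FvB and 8945 to 8954 CPM in WT_B6. Hes5, a Notch target in neural progenitors, had 53.9 and 60.9 CPM in WT_FvB, against 319, 286 and 293 CPM in WT_B6 (log2 fold change -2.38 ± 0.44 (SE), edgeR adjusted p = 0.000651). Of 6 astrocyte markers 4 were higher, and they summed to 1259 to 1268 CPM in WT_FvB and 999 to 1010.1 CPM in WT_B6. Gfap, an astrocyte filament protein, had 158 and 159 CPM in WT_FvB, against 19.7, 19.2 and 21.1 CPM in WT_B6 (log2 fold change 2.98 ± 0.63 (SE), edgeR adjusted p = 0.00153). Of 7 neuron markers 1 was higher and 4 were lower, with sums of 983 to 1029.6 CPM in WT_FvB and 1147 to 1157 CPM in WT_B6. Most of these sums was Map2, which was not called (means 978 and 1061 CPM, log2 fold change -0.12). The median log2 fold change of the 7 was -1.70. Those lower were Tubb3 (-2.16), Dcx (-1.70), Syt1 (-2.36) and Rbfox3 (-3.08), and Snap25 was higher (1.18). Of 8 oligodendrocyte lineage markers 1 was higher and 5 were lower, with sums of 2400.0 to 2423 CPM in WT_FvB and 3107 to 3284 CPM in WT_B6. The part of these markers in the values below was not tested.

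**Figure D3:**
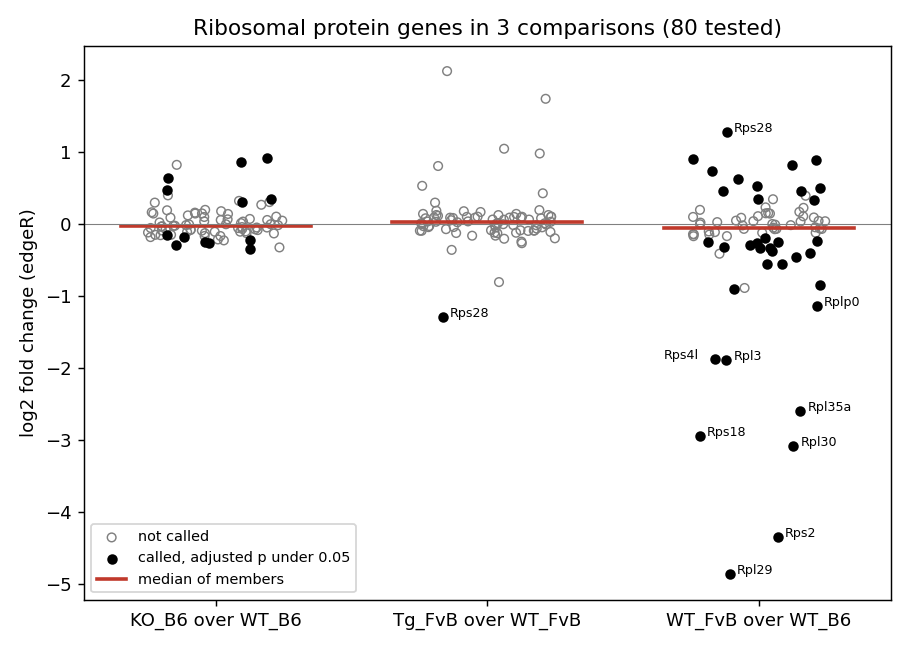
Log2 fold changes (vertical) of the 80 tested ribosomal protein genes in 3 comparisons (horizontal), with filled points for genes called at an adjusted p under 0.05, open points for the others and a line at the median. The knockout points lie between -1 and 1, while 8 genes in WT_FvB over WT_B6 lie below -1 and Rps28 lies above 1.

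The largest falls in WT_FvB, relative to WT_B6, were those of Rpl29 and Rps2. Rpl29, a large-subunit protein, had 6.70 and 6.74 CPM in WT_FvB, against 201, 199 and 192 CPM in WT_B6 (log2 fold change -4.87 ± 1.32 (SE), edgeR adjusted p = 0.00705). Rps2, which lies at the messenger RNA entry of the small subunit, had 17.3 and 17.7 CPM in WT_FvB, against 366, 335 and 367 CPM in WT_B6 (log2 fold change -4.35 ± 1.10 (SE), edgeR adjusted p = 0.00472). WT_FvB was at 3.41% of the WT_B6 mean for Rpl29 and at 4.92% for Rps2. In the transgenic libraries of that background, Rpl29 had 3.41, 5.33, 6.42, 8.55, 121 and 28.4 CPM and Rps2 had 15.7, 14.2, 19.3, 23.5, 228 and 47.0 CPM in Tg_FvB 1 to 6, so that Tg_FvB 5 stood far above the other 5.

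Rpl30 had 9.26 and 9.89 CPM in WT_FvB, against 75.5, 84.4 and 85.2 CPM in WT_B6 (log2 fold change -3.09 ± 0.65 (SE), edgeR adjusted p = 0.00149). Rps18, a protein of the small subunit's head, had 10.6 and 11.6 CPM in WT_FvB, against 83.9, 87.9 and 85.4 CPM in WT_B6 (log2 fold change -2.95 ± 0.65 (SE), edgeR adjusted p = 0.00187). Rpl35a, a gene mutated in some human patients with Diamond-Blackfan anaemia, had 3.00 and 3.05 CPM in WT_FvB, against 18.0, 19.9 and 17.0 CPM in WT_B6 (log2 fold change -2.60 ± 0.67 (SE), edgeR adjusted p = 0.00549). For these 3 genes too WT_FvB lay below all C57BL/6 libraries, at 11.7% of the WT_B6 mean for Rpl30, 12.9% for Rps18 and 16.5% for Rpl35a.

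Rpl3, which reaches into the peptidyl transferase centre, had 47.5 and 52.5 CPM in WT_FvB, against 184, 189 and 185 CPM in WT_B6 (log2 fold change -1.89 ± 0.41 (SE), edgeR adjusted p = 0.00179). The stalk base gene Rplp0 had 427 and 428 CPM in WT_FvB, against 968, 934 and 925 CPM in WT_B6 (log2 fold change -1.14 ± 0.21 (SE), edgeR adjusted p = 0.000663). No copy in the tables that shared a run was at most 2 times the length of Rplp0. Rplp0 shared 46.7% of its runs with 5 annotated pseudogenes not matched to a table entry, so adding copies could not check its value. Rps28 was the exception in direction, with 24.8 and 26.3 CPM in WT_FvB, against 9.92, 9.71 and 11.9 CPM in WT_B6 (log2 fold change 1.28 ± 0.28 (SE), edgeR adjusted p = 0.00191).

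For the largest falls in WT_FvB the KO_B6 libraries lay near WT_B6. In KO_B6, Rpl29 had 186, 189, 192 and 173 CPM, Rps2 had 408, 378, 411 and 371 CPM and Rplp0 had 852, 936, 891 and 800.2 CPM. Tg_FvB 1 to 4 sat with WT_FvB, between 1.73% and 6.60% of the WT_B6 mean for Rpl29 and Rps2. Tg_FvB 5 reached 61.5% of the WT_B6 mean for Rpl29, 64.1% for Rps2, 65.1% for Rpl30, 63.8% for Rps18, 90.5% for Rpl35a, 73.8% for Rpl3 and 76.8% for Rplp0. Tg_FvB 6 lay between, at 14.4% for Rpl29, 13.2% for Rps2, 23.1% for Rpl30 and 50.2% for Rplp0. These genes lie on several chromosomes, namely 5 for Rplp0, 9 for Rpl29, 15 for Rpl3 and Rpl30, 16 for Rpl35a and 17 for Rps2 and Rps18.

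The other 27 genes called between the wild types differed by less than 2-fold. Rps20 had 149 and 155 CPM in WT_FvB, against 229, 219 and 227 CPM in WT_B6 (log2 fold change -0.56 ± 0.11 (SE), edgeR adjusted p = 0.000698). Rps14, whose loss marks a form of human myelodysplasia, had 204 and 203 CPM in WT_FvB, against 285, 278 and 281 CPM in WT_B6 (log2 fold change -0.47 ± 0.09 (SE), edgeR adjusted p = 0.00112). Among the genes that were higher, Rpl10a had 36.3 and 36.5 CPM in WT_FvB, against 20.4, 19.1 and 20.0 CPM in WT_B6 (log2 fold change 0.88 ± 0.15 (SE), edgeR adjusted p = 0.000356). Rpl12, Rps12, Rpl38, Rps13 and Rpl41 were also higher in WT_FvB, by 0.89, 0.74, 0.82, 0.62 and 0.52 on the log2 scale. Many genes called in KO_B6 over WT_B6 were also called in WT_FvB over WT_B6, and both comparisons use the same WT_B6 libraries. How many of all genes were called in both was not counted, so this overlap is not shown to be particular to ribosomal protein genes. In KO_B6 over WT_B6 and then WT_FvB over WT_B6, the log2 fold changes of the genes higher in both were 0.91 and 0.88 for Rpl10a, 0.86 and 0.89 for Rpl12, 0.64 and 0.74 for Rps12 and 0.30 and 0.32 for Rpl17. Those of the genes lower in both were -0.36 and -0.56 for Rps20, -0.29 and -0.34 for Rpl23, -0.28 and -0.26 for Rpl22, -0.26 and -0.56 for Rps7, -0.22 and -0.30 for Rps4x, -0.19 and -0.26 for Rps9 and -0.16 and -0.20 for Rpl4. Of the 13 genes called in the knockout comparison, Rps27l and Rpl9 were not called between the wild types.

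**Figure D4:**
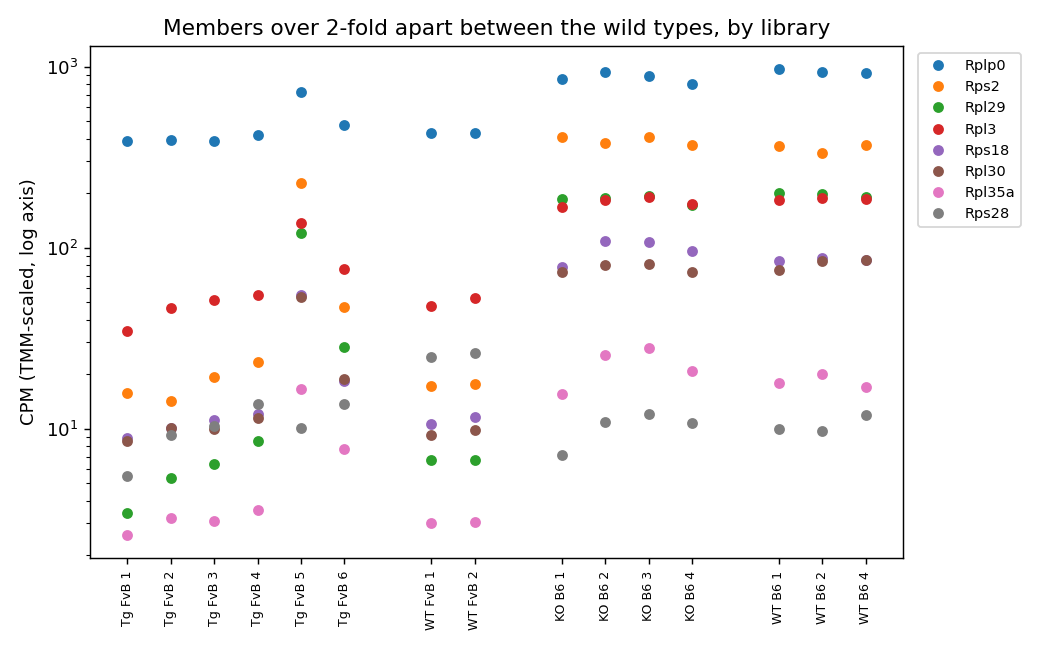
CPM per library (vertical, log axis) of 8 genes (mean over the libraries 5 CPM or more) that differed over 2-fold between the wild types, with libraries grouped as Tg_FvB, WT_FvB, KO_B6 and WT_B6 (horizontal). For all but Rps28, Tg_FvB 1 to 4 and WT_FvB lie low, KO_B6 and WT_B6 lie high and Tg_FvB 5 lies above the other FvB libraries.

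Several processed copies moved against these genes. Gm8210, the copy of Rpl29, had 133 and 139 CPM in WT_FvB, against 14.8, 15.7 and 13.2 CPM in WT_B6 (log2 fold change 3.22 ± 0.24 (SE), edgeR adjusted p = 1.4e-06). In Tg_FvB 5, where Rpl29 was high, Gm8210 had 63.2 CPM, less than in the other 5 transgenic libraries, which had 119.6 to 145 CPM. Rpl29 held 4.66% of its family's counts in WT_FvB and 91.0% in WT_B6. With 11 copies added, its log2 fold change between the wild types was -0.59 (edgeR adjusted p = 0.00165), against -4.87 for the gene alone.

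Gm6139, the copy of Rps2, had 119.9 and 123 CPM in WT_FvB, against 96.1, 88.1 and 91.5 CPM in WT_B6 (log2 fold change 0.40 ± 0.12 (SE), edgeR adjusted p = 0.00968). Rps2 itself differed by more CPM than its copies did, and with 4 copies added the log2 fold change was -1.57 (edgeR adjusted p = 0.00107). Rpl26, which in human cells binds the p53 message, had 72.0 and 74.1 CPM in WT_FvB, against 138, 141 and 131 CPM in WT_B6 (log2 fold change -0.90 ± 0.27 (SE), edgeR adjusted p = 0.0131). Its copy Gm15772 had 292 and 292 CPM in WT_FvB, against 209.8, 226 and 233 CPM in WT_B6 (log2 fold change 0.39 ± 0.08 (SE), edgeR adjusted p = 0.00106). The sum of Rpl26 and its 3 copies had a log2 fold change of 0.0018 (edgeR adjusted p = 0.986).

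Rpl34 had 39.4 and 42.4 CPM in WT_FvB, against 71.0, 77.0 and 74.3 CPM in WT_B6 (log2 fold change -0.86 ± 0.19 (SE), edgeR adjusted p = 0.00173). Its copy Rpl34-ps1 had 167 and 159 CPM in WT_FvB, against 110.2, 123 and 121 CPM in WT_B6 (log2 fold change 0.46 ± 0.13 (SE), edgeR adjusted p = 0.0103). The family sum had a log2 fold change of 0.18 (edgeR adjusted p = 0.127). Adding copies also brought Rpl30 to -0.28 (edgeR adjusted p = 0.0685), while Rps18 stayed at -3.23 (edgeR adjusted p = 0.00221), Rpl35a at -1.67 (edgeR adjusted p = 0.00334) and Rpl3 at -0.98 (edgeR adjusted p = 0.00107).

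Of the 36 genes called in WT_FvB over WT_B6, 25 had a tested copy. For 5 of them a copy was called in the opposite direction (Rpl29, Rps2, Rpl26, Rpl34 and Rpl17), and for 12 a copy was called in the same direction, with Rpl29 and Rps2 in both sets. Among the 120 tested copies, 27.5% were called, 15 higher and 18 lower in WT_FvB, against 48.9% of all genes. With copies added, 35 of 80 genes were called, 11 higher and 24 lower, so that adding copies changed individual genes more than the count. In that fit 49.1% of all genes were called. Whether reads of the FvB/BalbC libraries were assigned to another locus of the reference genome was not tested.

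**Figure D5:**
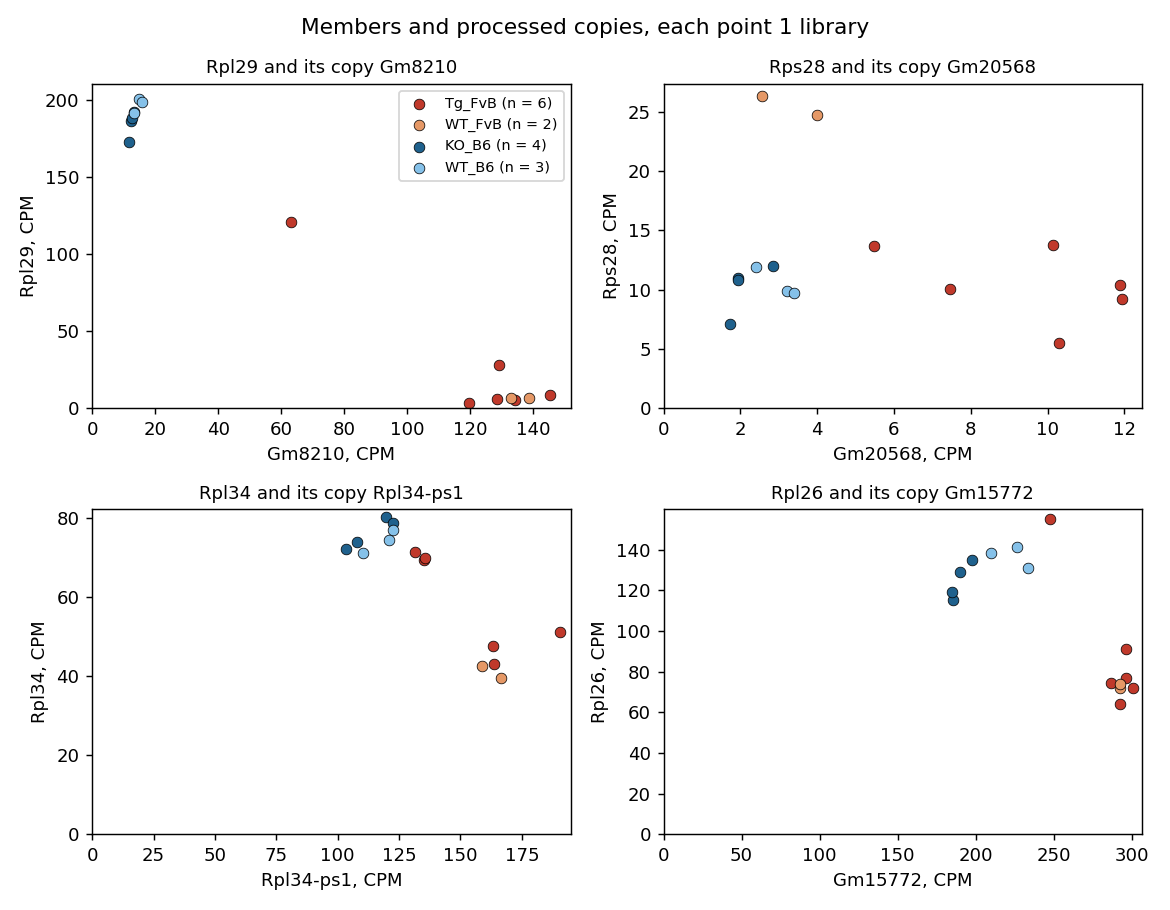
CPM of 4 ribosomal protein genes (vertical) against CPM of a processed copy of each (horizontal), 1 point per library, coloured by group. Rpl29 is high where Gm8210 is low, with Tg_FvB 5 between the clusters at 121 and 63.2 CPM. For Rps28 the WT_FvB points lie at the upper left.

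Paralogs inside the group differed widely in counted level. Rps27l had 263 CPM per kilobase and Rps27 had 10.6, over all 15 libraries. These levels do not rank the paralogs, because reads of Rps27 and of a copy cannot be told apart by these runs. Rps27rt, a protein-coding copy that holds all 66-base runs of Rps27, had 654 CPM per kilobase, above Rps27l, and Rps27 held 2.64% of the summed counts of both in KO_B6 and 2.19% in WT_B6. Rps4x, on the X chromosome, had 239.6 CPM per kilobase and Rps4l, listed as a transcribed pseudogene, had 2.42. Rps4l had 0.788 and 0.729 CPM in WT_FvB, against 2.62, 2.64 and 3.12 CPM in WT_B6 (log2 fold change -1.88 ± 0.57 (SE), edgeR adjusted p = 0.0136). In KO_B6, Rps4l had 4.37, 5.85, 5.52 and 3.98 CPM, all above WT_B6, without passing the test (log2 fold change 0.82 ± 0.39 (SE), edgeR adjusted p = 0.0985). Rps27 did not pass the test in KO_B6 over WT_B6, at 0.06 ± 0.13 log2 (SE), and whether it differs from Rps27l in its response was not tested.

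Related genes whose symbols the rule does not take in were few. Of 8 such genes, 2 were higher in KO_B6, or 25%, near the 24.8% of all genes: Rpl7l1, a ribosome assembly factor related to Rpl7 (log2 fold change 0.26 ± 0.07 (SE), edgeR adjusted p = 0.00737), and Rpl36al, a paralog of Rpl36a. Rpl36al had 56.4, 64.5, 65.0 and 59.3 CPM in KO_B6, against 49.9, 53.7 and 53.8 CPM in WT_B6 (log2 fold change 0.22 ± 0.07 (SE), edgeR adjusted p = 0.019). Rpl36a itself had a log2 fold change of -0.13 ± 0.14 (SE). Rpl22l1, which can take the place of Rpl22, had 45.8, 53.8, 59.5 and 52.0 CPM in KO_B6, against 48.7, 51.5 and 51.9 CPM in WT_B6 (log2 fold change 0.06 ± 0.12 (SE), edgeR adjusted p = 0.721), while Rpl22 fell.

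Lists of other genes of ribosome production and use were counted in KO_B6 over WT_B6, where 45.8% of all genes were called. Of 20 translation initiation factor genes without a known start tract, 15 rose and none fell in KO_B6, a median log2 fold change of 0.27. The largest rises among them were Eif2s1, a subunit of the factor that brings the initiator tRNA (0.64 ± 0.08, SE), the scaffold Eif4g1 (0.60 ± 0.09) and the cap-binding Eif4e (0.60 ± 0.08). Of 18 genes of 5S particle assembly, p53 and ribosome surveillance, 12 rose and none fell, a median of 0.37. They included Zfp598, a sensor of collided ribosomes (0.83 ± 0.09), Otud4, a deubiquitinase gene (0.71 ± 0.10), and Bop1, a large-subunit assembly factor (0.70 ± 0.11). WT_FvB over WT_B6 shares the WT_B6 libraries, and 48.9% of all genes were called there. In it the initiation factors had 13 higher and 2 lower (median 0.30), and the surveillance list 9 higher and 0 lower (median 0.21). Its values were 0.72 for Eif2s1, 0.56 for Eif4g1, 0.56 for Eif4e, 0.61 for Zfp598, 0.73 for Otud4 and 0.68 for Bop1.

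Of 26 other genes whose messages are known to carry the same start tract as the ribosomal proteins, 10 rose and 7 fell in KO_B6. Snhg1 (0.94 ± 0.08, SE) and Snhg5 (0.93 ± 0.11), hosts of small nucleolar RNAs, rose most, and Eif3f (-0.50 ± 0.07) fell most. Of 21 genes of mTORC1, LARP1 and MYC control, 6 rose and 2 fell. Myc, a driver of ribosome production, had 131, 134, 129 and 126 CPM in KO_B6, against 61.9, 60.7 and 57.7 CPM in WT_B6 (log2 fold change 1.11 ± 0.09 (SE), edgeR adjusted p = 1.79e-06). Mxd4, of the family that opposes Myc, had 34.7, 37.1, 36.3 and 45.7 CPM in KO_B6, against 79.9, 75.9 and 73.6 CPM in WT_B6 (log2 fold change -0.99 ± 0.13 (SE), edgeR adjusted p = 5.76e-05). In WT_FvB over WT_B6, with the same WT_B6 libraries, the start-tract list had 9 higher and 8 lower. The control list had 5 higher and 5 lower. Log2 fold changes there were 0.99 for Snhg1, 0.76 for Snhg5, -0.61 for Eif3f, 0.58 for Myc and -0.95 for Mxd4.

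With gain of Kat6b none of these lists had a call by edgeR. At an unadjusted p under 0.05, Tg_FvB over WT_FvB had 1 of 20 initiation factors, 2 of 18 genes of the 5S particle and surveillance list, 2 of 26 genes with the start tract and 4 of 21 genes of mTORC1, LARP1 and MYC control. By DESeq2 the start-tract list had 1 call and the others 0. Of the 8 related genes, 0 were called by either tool and 0 had an unadjusted p under 0.05.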

How the data were processed

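RNA was sequenced as 66-base paired-end reads in 15 libraries, per the labels. The deposited values are raw counts per gene that the authors made with bcl2fastq and featureCounts on build mm10, per the submitters' processing notes. Aligner, annotation, versions, strandedness and treatment of reads with several matches: not given in the sources used here. Levels per kilobase use the gene length in bases that the authors deposited beside the counts. Entries without a gene name, 917 per library, held 0.450% to 0.545% of counts and were left out. Samples were grouped by the labels' genotype and background; the Tg_FvB titles say knockout, and WT_B6 1 and WT_FvB 2 carry the same litter and embryo numbers. No label says that libraries came from separate cultures.

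All 15 libraries entered 1 edgeR 4.0.16 quasi-likelihood model (R 4.3.3, TMM, filterByExpr with a minimum count of 10, Benjamini-Hochberg over the 15261 genes tested). DESeq2 1.42.0 was an alternative. The test recovered known changes in simulated counts, but these were drawn independently for each library. Several libraries here were nearly alike, so the simulation cannot show how the test performs on them. SE were derived from the F statistic. Copies are table entries that share a 66-base run with a gene and are at most 2 times its length. Some, such as Med21 and BC004004, are listed as protein-coding and are not named as ribosomal. Counts with copies added can therefore hold reads of other genes. The use of copies was chosen after seeing the data. The members and lists were chosen with earlier results of these data known. Genes given by library were up to 8 called ones per comparison by size of change with a mean of at least 5 CPM, paralog pairs, and Rpl5, Rpl11, Rps6, Rpsa and the stalk genes; Rpl26, Rpl34, Rpl21 and the copies were chosen after their values were seen. Counts of reads without molecular identifiers limit precision beyond counting error.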

Additional observations from a re-analysis of the deposited data

Results flagged for a closer look

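Of 50 groups of 4 or 6 libraries tested, 10 had 1 library far from the rest for the spread of the others. Chance alone gives about 1 in 20. The genes tested were named above, many for the size of their change, so this rate is only a loose yardstick. In Tg_FvB, replicate 5 was the highest library for 6 genes: Rpl29 with 121.1 CPM (next 28.4), Rps2 with 228.1 (47.0), Rpl30 with 53.1 (18.8), Rps18 with 54.7 (18.4), Rpl35a with 16.6 (7.74) and Rplp0 with 723.7 (473.4). Tg_FvB 6 was the highest for Rpl23 with 159.3 CPM (next 121.7) and for Rpl26 with 155.3 CPM (next 91.4). In KO_B6, Rps27l was lowest in replicate 1 with 113.6 CPM (next 152.8), and Rps4x was lowest in replicate 4 with 196.6 CPM (next 207.9). These genes share libraries, so the flags are not independent.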

How the results depend on the processing

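The 13, 1, 36 and 12 calls (KO_B6 over WT_B6, Tg_FvB over WT_FvB, WT_FvB over WT_B6, and the difference of the Kat6b effects) stayed within 1.5 times under other scalings, without a count filter and with DESeq2. Exceptions follow; the cause was not tested. With near-identical libraries summed all 4 counts were 0 (5, 1, 19 and 4 at an unadjusted p under 0.05). With the replicate block the counts were 21, 3, 39 and 18 (49.7%, 2.18%, 52.9% and 37.4% of all genes called). The replicate numbers do not pair the samples (correlations of same-numbered deviations -0.010, 0.015 and -0.024 on C57BL/6). Without Tg_FvB 5 and 6 together the counts were 23, 3, 40 and 18 (53.1%, 4.19%, 54.9% and 39.3% of all genes). In fits of the compared groups only they were 21, 0 (2 at an unadjusted p under 0.05) and 51 (53.8%, 0.0687% and 72.1%). Adding copies gave 0 for Tg_FvB over WT_FvB (1.86%). Litter as a covariate gave 7 for the difference (18.8%) and could not be fitted for WT_FvB over WT_B6. Leaving out 1 library gave 8 to 18, 0 to 4, 18 to 39 and 3 to 15. Reversed values were Rpl17 in KO_B6 over WT_B6 with named pseudogenes added (-0.037, edgeR adjusted p = 0.777), and in WT_FvB over WT_B6 Rpl34 with named pseudogenes (0.10, 0.331) or copies added (0.18, 0.127) and Rpl26 with copies added (0.0018, 0.986). Of 690 recomputed values of 26 named results, 614 kept direction and side of the threshold, 67 lost and 5 gained the call, and 4 reversed. WT_FvB, with 2 libraries, limits 3 of the comparisons.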
